A study of Mus musculus with 12 samples.

Results

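The genes described here make cholesterol and fatty acids, control that synthesis, or carry sterol away. They are 31 genes listed by symbol, a rule that uses no measured value, out of 55216 genes in the count table: 7 genes of the mevalonate arm, 10 genes from squalene to cholesterol, 5 genes of the control by sterol regulatory element binding proteins (SREBPs), the sterol carrier Stard4, 6 genes of fatty acid synthesis, and the 2 efflux pumps Abca1 and Abcg1. A filter on low counts kept 13177 genes, among them 30 of the 31. Abcg1, a cholesterol exporter, did not pass, with no count in 11 libraries and 1 count in Combo2000 replicate 3.

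RNA-seq was performed on Myc-CaP cells, a mouse prostate cancer line of the FVB/NJ strain from a male, grown in medium with serum and treated for 48 h. The 12 libraries form 6 groups of 2: untreated cells (Ctrl), interferon γ (IFNγ) at 200 or 2000 pg as labelled (IFN200, IFN2000), oxaliplatin at 2 μM, a platinum drug that damages DNA (Oxali), and Oxali with either amount of IFNγ (Combo200, Combo2000). Groups follow the sample titles. For the 6 libraries with 1 agent the agent label disagrees with the title: those titled IFN200 carry Oxali, those titled IFN2000 carry IFNγ at 200 pg and those titled Oxali carry IFNγ at 2000 pg. The labels of Ctrl and of both Combos do not conflict, so Combo against Ctrl does not depend on which label is right. By the titles, Oxali differed from Ctrl in 8911 genes, Combo200 from Oxali in 241 and IFN200 from Ctrl in 15. For Insig1 the libraries titled Oxali lay with the Combos and those titled IFN200 and IFN2000 with Ctrl. Insig1 is a member reported below, so its values are no separate check of the titles. Which label is right was not tested. All values come from 1 line in culture, and the labels do not say whether partners were separate cultures, so p-values measure the spread between these libraries.

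Cells build cholesterol from acetyl-CoA through mevalonate, isoprenoid diphosphates, squalene and lanosterol. When membrane sterol is low, Scap carries SREBP precursors, the products of Srebf1 and Srebf2, from the endoplasmic reticulum to the Golgi, where proteases free a part that enters the nucleus and turns on these genes. Insig proteins hold Scap back when sterol is high, and Insig1 is itself an SREBP target. SREBP2 acts mostly on sterol genes and SREBP1 mostly on fatty acid genes, whereas liver X receptors (LXRs), which sense oxysterols, turn on Abca1, Abcg1 and Srebf1.

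Library totals ran from 18749975 to 25931516 counts, which puts 3 counts, the limit that a count of 0 allows, at 0.111 to 0.167 CPM (TMM-scaled read counts relative to library size). This limit covers counting error only. No library was a copy of its partner. Of 7 markers of prostate luminal cells, Epcam was at 0 in every library, while Krt8, a keratin of these cells, was at 18.6 to 23.9 CPM. IFN2000 replicate 2 held T cell transcripts, with 6 markers summing to 5.31 CPM against at most 0.262 elsewhere, and IFN200 replicate 1 held 6.21 CPM over 5 heart muscle markers, which summed to 3.02 to 5.94 CPM with Oxali, nearly all of it Tnnt2. Of 4 fibroblast markers only Pdgfra passed 1 CPM, and their sum was 9.95 to 17.4 CPM without and 20.9 to 25.6 CPM with Oxali. The 4 hepatocyte markers summed to at most 0.525 CPM. The log2 ratio to Ctrl also fell with transcript length in IFN2000 replicates 2 and 3, with Spearman correlations across genes of -0.35 and -0.19, against -0.02 to 0.15 in the other libraries.

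Promoter sequence is shown first, because members that fell far and members that did not pass the test belong to the same pathway. The RefSeq promoter table (GRCm38.p6, 250 bases before to 50 after each start) held 24 of the 31 members. Fdps, Fdft1, Sqle, Stard4, Scd1, Scd2 and Abcg1 had no entry. Searched on both strands were TCACNCCAC, a sterol element bound by SREBPs, CCAAT, bound by NF-Y, CACGTG, an E-box bound by MYC and by SREBP1, and GGGCGG, bound by SP1. The stretches below end before the gene's first annotated exon. Hmgcs1 and Insig1 are shown as a synthetic enzyme and a regulator that fell with Oxali, and Srebf2 as a transcription factor gene that fell. Cyp51 is shown as an enzyme that did not pass the test in Oxali against Ctrl. Capitals mark the motifs, read on either strand (ATTGG and CCGCCC are CCAAT and GGGCGG on the other strand), none of which overlap.
Hmgcs1: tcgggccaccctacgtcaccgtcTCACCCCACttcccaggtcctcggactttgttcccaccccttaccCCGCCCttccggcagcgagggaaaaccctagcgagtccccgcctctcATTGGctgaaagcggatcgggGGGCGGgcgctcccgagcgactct
Insig1: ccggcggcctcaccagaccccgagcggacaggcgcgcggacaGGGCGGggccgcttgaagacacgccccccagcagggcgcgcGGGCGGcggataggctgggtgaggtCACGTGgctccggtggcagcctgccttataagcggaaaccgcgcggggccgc
Srebf2: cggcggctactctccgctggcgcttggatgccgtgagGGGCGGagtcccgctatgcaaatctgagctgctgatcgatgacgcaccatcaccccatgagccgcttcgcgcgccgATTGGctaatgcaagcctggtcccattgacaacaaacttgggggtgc
Cyp51: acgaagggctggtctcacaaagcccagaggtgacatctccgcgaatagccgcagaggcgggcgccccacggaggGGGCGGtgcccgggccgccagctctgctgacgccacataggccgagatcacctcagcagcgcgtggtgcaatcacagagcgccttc
They lie at chr13:119690191-119690350, chr5:28071203-28071362 and chr15:82147021-82147180 on the plus strand and at chr5:4104747-4104906 on the minus strand. Among the members the sterol element was found only in Hmgcs1, 137 bases before its start, and in 1.44% of the 27025 genes in the table. CCAAT was found in 19 of the 24 members and in 41.1% of all genes, GGGCGG in 20 members and in 38.2%. CACGTG was found in 6 members, Hsd17b7, Sc5d, Dhcr7, Scap, Insig1 and Abca1, and in 8.09% of all genes. Cyp51, like Hmgcs1, Insig1 and Srebf2, held both CCAAT and GGGCGG in its window. In Insig1 and Cyp51 the CCAAT, 216 and 29 bases before the start, lies outside the stretch shown. A match is a description and not a site, and the absence of a match says only that these letters are not in this window.

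To ask what Oxali did to these genes, Oxali was compared with Ctrl. Genes were called by the quasi-likelihood test of edgeR at a Benjamini-Hochberg adjusted p under 0.05, and this test gives every adjusted p below. Of 30 members, 24 were lower and 3 higher (Pmvk, Insig2 and Abca1), in a comparison where 67.6% of all genes were called, 32.8% lower and 34.8% higher. The median log2 fold change was -0.64 over the members and 0.00 to 0.03 over all genes in the comparisons made. Acat2, Cyp51 and Dhcr7 did not pass the test. The fall was seen in each branch: 5 of 7 mevalonate genes, 8 of 10 genes from squalene to cholesterol, 4 of 5 SREBP control genes, Stard4 and all 6 fatty acid genes were lower. In bulk RNA, fewer cells of a type and less RNA per cell cannot be told apart.

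**Figure D1:**
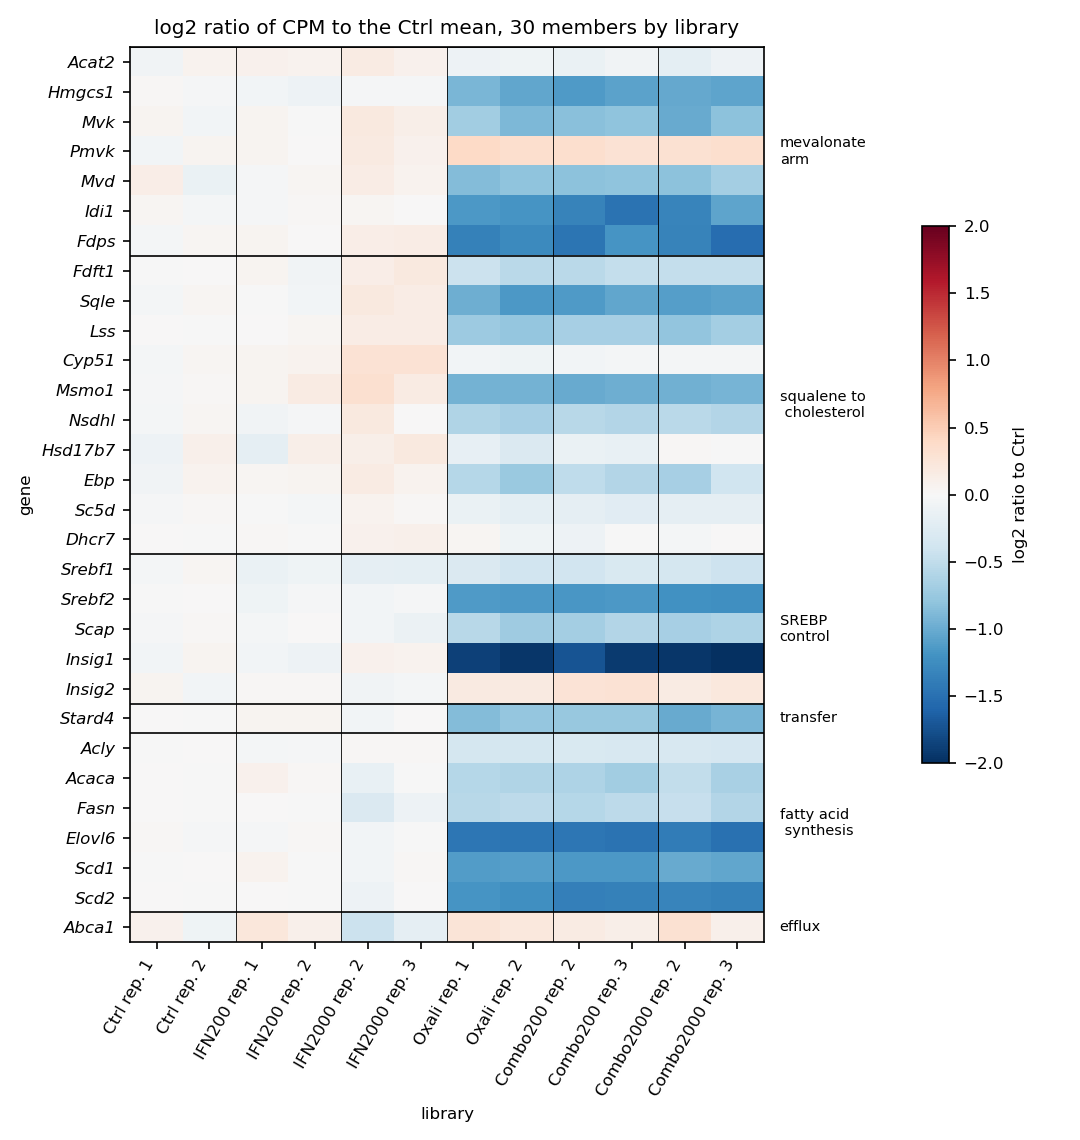
Log2 ratio of CPM to the Ctrl mean for the 30 members tested (rows, grouped by role) in the 12 libraries (columns), on a colour scale from blue (lower) to red (higher). The 6 libraries with Oxali are blue for most genes and deepest for Insig1, while Pmvk, Insig2 and Abca1 are pale red there.

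The regulators of the pathway did not all move one way. Insig1 lies at chr5:28071363-28078662 and Srebf2 at chr15:82147181-82205379 (GRCm38). Insig1 was at 25.5 and 27.7 CPM in Ctrl, 25.6 and 24.8 with IFN200, 28.1 and 28.0 with IFN2000, against 7.28 and 6.87 with Oxali alone, 8.03 and 7.07 for Combo200 and 6.93 and 6.68 for Combo2000. The 6 libraries with Oxali lay between 6.68 and 8.03 CPM and the other 6 between 24.8 and 28.1 CPM. Its log2 fold change in Oxali was -1.91 ± 0.09 (SE, edgeR adjusted p = 2.18e-13), a 3.76-fold fall and the largest among the members. Insig2, the other sterol-gated anchor of Scap, was at 53.9 and 50.2 CPM in Ctrl, 53.0 and 52.8 with IFN200, 49.6 and 50.5 with IFN2000, against 59.0 and 58.6 with Oxali alone, 62.9 and 63.2 for Combo200 and 58.2 and 60.3 for Combo2000. Its 6 libraries with Oxali lay above the other 6, with a log2 fold change of 0.18 ± 0.05 (SE, edgeR adjusted p = 0.00238), which missed the threshold without Ctrl replicate 2 (0.13). Per kilobase of exon, Insig1 stood at 8.60 and Insig2 at 14.98 CPM per kb in Ctrl, and at 2.29 and 16.9 CPM per kb in Oxali.

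Srebf2, which encodes SREBP2, was at 240.4 and 242 CPM in Ctrl, 228 and 238 with IFN200, 233 and 238 with IFN2000, against 110.4 and 109 with Oxali alone, 108 and 109 for Combo200 and 105 and 103 for Combo2000. All 6 libraries with Oxali were at or below 110.4 CPM and the others at or above 228 CPM, and the log2 fold change was -1.14 ± 0.04 (SE, edgeR adjusted p = 2.96e-15). Srebf1, which encodes SREBP1, was at 138 and 145 CPM in Ctrl, 129.5 and 134 with IFN200, 125 and 124 with IFN2000, against 116 and 109 with Oxali alone, 109 and 115 for Combo200 and 111 and 106 for Combo2000. The groups with and without Oxali did not overlap here either, but the fall was smaller, with a log2 fold change of -0.34 ± 0.05 (SE, edgeR adjusted p = 2.05e-06). Scap, the escort of both, was at 116 and 119 CPM in Ctrl, 114 and 118 with IFN200, 114 and 109 with IFN2000, against 79.97 and 72.3 with Oxali alone, 73.8 and 78.2 for Combo200 and 74.3 and 76.9 for Combo2000. Its libraries with Oxali were all lower, with a log2 fold change of -0.63 ± 0.05 (SE, edgeR adjusted p = 8.39e-10). Of the 50-base stretches of its longest transcript, 13.1% are shared with a gene on the opposite strand, and whether counting used the strand was not stated.

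Stard4, which moves cholesterol between membranes, was at 56.7 and 56.6 CPM in Ctrl, 58.6 and 58.5 with IFN200, 54.6 and 56.8 with IFN2000, against 30.9 and 33.2 with Oxali alone, 33.6 and 33.7 for Combo200 and 28.2 and 29.8 for Combo2000. It fell in every library with Oxali, with a log2 fold change of -0.82 ± 0.05 (SE, edgeR adjusted p = 3.54e-11). Abca1, which pumps cholesterol to apolipoproteins outside the cell, was at 69.7 and 61.4 CPM in Ctrl, 76.3 and 70.0 with IFN200, 48.3 and 57.8 with IFN2000, against 78.0 and 76.1 with Oxali alone, 72.9 and 71.0 for Combo200 and 80.6 and 70.1 for Combo2000. Its values with Oxali overlapped those of IFN200, and the lowest were in IFN2000. The log2 fold change in Oxali was 0.24 ± 0.08 (SE, edgeR adjusted p = 0.0102), and the call was lost without Ctrl replicate 2 (0.15) or without Oxali replicate 1 (0.22). Among 5 macrophage markers, a cell type rich in Abca1, Adgre1 and Itgam were at 0 in every library, and the sum of all 5 was 12.5 to 15.6 CPM without and 16.2 to 18.7 CPM with Oxali, nearly all of it Cd14.

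In the mevalonate arm the largest falls were in Fdps and Idi1, both late in the arm. Hmgcs1, which makes HMG-CoA, was at 46.3 and 44.9 CPM in Ctrl, 44.0 and 42.5 with IFN200, 45.0 and 45.1 with IFN2000, against 24.2 and 22.1 with Oxali alone, 20.8 and 21.7 for Combo200 and 22.5 and 21.9 for Combo2000. Every library with Oxali lay at or below 24.2 CPM and every other at or above 42.5 CPM, with a log2 fold change in Oxali of -0.97 ± 0.06 (SE, edgeR adjusted p = 1.50e-11). Idi1, the isomerase of isoprenoid diphosphates, was at 10.2 and 9.63 CPM in Ctrl, 9.72 and 10.1 with IFN200, 10.2 and 10.0 with IFN2000, against 4.47 and 4.39 with Oxali alone, 3.93 and 3.56 for Combo200 and 3.96 and 4.78 for Combo2000. The log2 fold change was -1.16 ± 0.12 (SE, edgeR adjusted p = 4.77e-08). Fdps, which makes farnesyl diphosphate, was at 6.29 and 6.64 CPM in Ctrl, 6.68 and 6.495 with IFN200, 7.07 and 7.14 with IFN2000, against 2.53 and 2.67 with Oxali alone, 2.36 and 2.86 for Combo200 and 2.56 and 2.24 for Combo2000. Both genes separated the 6 libraries with Oxali from the other 6, and Fdps had a log2 fold change of -1.31 ± 0.15 (SE, edgeR adjusted p = 1.59e-07). Per length these were also the 2 lowest of the 30 members, with 2.83 CPM per kb for Idi1 and 1.54 CPM per kb for Fdps in Ctrl. Some reads may belong to other genes: 30.5% of the 50-base stretches of Idi1, 11.7% of Fdps and 13.6% of Hmgcs1 recur in pseudogene models or overlapping genes.

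The other kinases and the decarboxylase of this arm went both ways. Mvk, mevalonate kinase, was at 34.4 to 41.1 CPM over the 6 libraries without Oxali and at 17.8 to 22.1 CPM over the 6 with it, and its log2 fold change in Oxali was -0.79 ± 0.08 (SE, edgeR adjusted p = 2.15e-08). Mvd, which makes isopentenyl diphosphate, was at 22.7 to 27.5 CPM without and 13.6 to 15.5 CPM with Oxali, with a log2 fold change of -0.84. Pmvk, phosphomevalonate kinase, which acts between those 2 enzymes, went the other way, with 75.6 to 88.2 CPM without Oxali and 95.9 to 103 CPM with it. Its log2 fold change was 0.36 ± 0.05 (SE, edgeR adjusted p = 1.23e-06). Acat2, the thiolase at the start of the arm, ranged over 24.5 to 28.8 CPM without and 22.4 to 24.3 CPM with Oxali, with a log2 fold change of -0.10 ± 0.07 (SE, edgeR adjusted p = 0.208) and 45.9% of its 50-base stretches shared with Acat3 or Tcp1.

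From squalene to cholesterol the fall was uneven. Sqle, squalene epoxidase, was at 95.4 and 101 CPM in Ctrl, 97.4 and 94.2 with IFN200, 112 and 108 with IFN2000, against 49.8 and 44.3 with Oxali alone, 44.7 and 47.9 for Combo200 and 45.6 and 46.9 for Combo2000. Its libraries with Oxali did not exceed 49.8 CPM and the others were at least 94.2 CPM, with a log2 fold change of -1.06 ± 0.05 (SE, edgeR adjusted p = 1.41e-12). Msmo1, the methylsterol oxidase, was at 56.4 and 58.2 CPM in Ctrl, 59.6 and 64.3 with IFN200, 71.6 and 64.3 with IFN2000, against 29.8 and 29.6 with Oxali alone, 28.4 and 29.1 for Combo200 and 29.3 and 30.1 for Combo2000. None of its libraries with Oxali overlapped the others, and the log2 fold change was -0.95 ± 0.06 (SE, edgeR adjusted p = 3.97e-11). Cyp51, the lanosterol demethylase whose product Msmo1 and its partners process further, was at 80.2 and 84.8 CPM in Ctrl, 86.1 and 86.4 with IFN200, 100.3 and 100.4 with IFN2000, against 79.0 and 77.8 with Oxali alone, 79.2 and 80.2 for Combo200 and 80.5 and 80.6 for Combo2000. The values with Oxali were close to those of Ctrl, with a log2 fold change of -0.07 ± 0.04 (SE, edgeR adjusted p = 0.122), and the highest libraries were the 2 of IFN2000.

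Fdft1 (squalene synthase), Lss (lanosterol synthase), Nsdhl (a sterol dehydrogenase) and Ebp (a sterol isomerase) had log2 fold changes of -0.49, -0.75, -0.64 and -0.65 in Oxali, each called and each without overlap between the 6 libraries with Oxali and the other 6. Sc5d, a sterol desaturase near the end of the pathway, fell little, with 64.8 to 69.3 CPM without and 56.8 to 60.2 CPM with Oxali and a log2 fold change of -0.17 ± 0.04 (SE, edgeR adjusted p = 0.00235). Hsd17b7, a sterol ketone reductase, had -0.23 ± 0.10 (SE, edgeR adjusted p = 0.0447), but its values overlapped and the call was lost with DESeq2, with upper-quartile scaling, and without Ctrl replicate 2 or Oxali replicate 2. Dhcr7, the reductase of a last step, was at 40.3 to 43.7 CPM without and 37.9 to 41.7 CPM with Oxali, and its log2 fold change was -0.02 ± 0.05 (SE, edgeR adjusted p = 0.779). Thus 7 of the 10 genes fell without overlap, where 28.9% of all genes did. The weakest changes were in Cyp51, Hsd17b7, Sc5d and Dhcr7. With a correction for transcript length and GC content Cyp51 had -0.14 and passed the test (adjusted p = 0.00286). For Fdft1, 30.7% of 50-base stretches are shared with Ctsb, an overlapping gene on the other strand, or a pseudogene model.

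**Figure D2:**
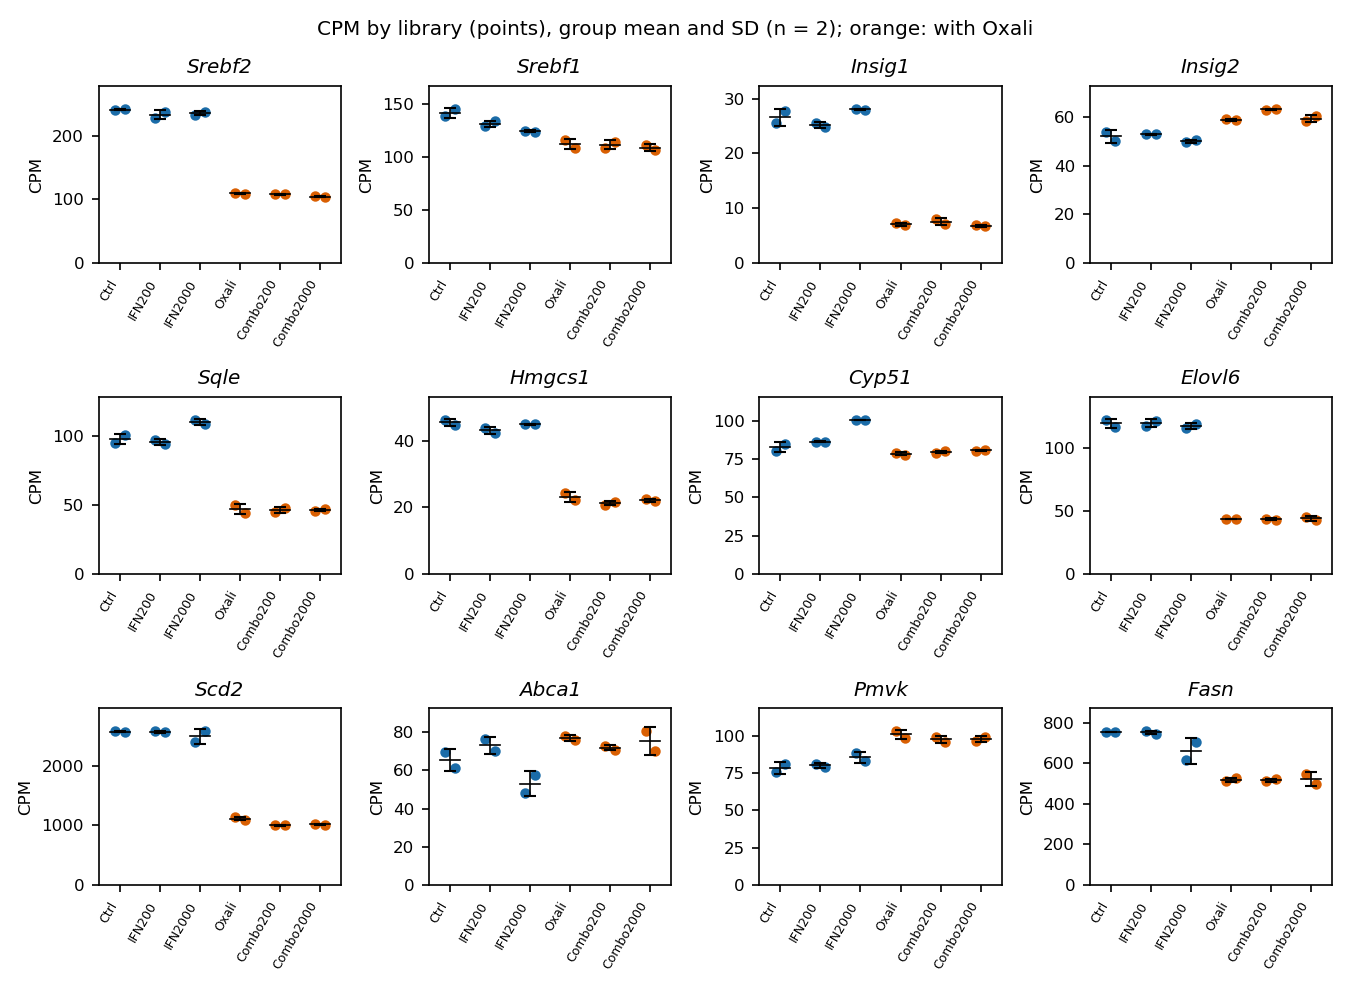
CPM in each library (points) for 12 members, with the mean and SD of each group (n = 2); each axis starts at 0, and orange marks libraries with Oxali. Insig1, Srebf2, Sqle, Hmgcs1, Elovl6 and Scd2 split by Oxali alone, Insig2 and Pmvk split the other way, and Cyp51 is highest in IFN2000.

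All 6 fatty acid genes fell, most of all those that elongate and desaturate. Elovl6 (chr3:129532355-129638495), which lengthens palmitate, was at 123 and 117 CPM in Ctrl, 118 and 122 with IFN200, 116 and 119 with IFN2000, against 44.0 and 43.6 with Oxali alone, 44.1 and 43.0 for Combo200 and 45.7 and 42.7 for Combo2000. The libraries with Oxali reached at most 45.7 CPM and those without it at least 116 CPM, with a log2 fold change of -1.45 ± 0.05 (SE, edgeR adjusted p = 1.69e-15). Scd1, a desaturase that makes oleate, was at 161 and 163 CPM in Ctrl, 170.3 and 162 with IFN200, 155 and 164 with IFN2000, against 74.2 and 75.5 with Oxali alone, 72.9 and 72.9 for Combo200 and 80.2 and 78.9 for Combo2000. Its log2 fold change was -1.11 ± 0.04 (SE, edgeR adjusted p = 2.50e-14). Scd2, its close relative, lies on the same chromosome, at chr19:44293674-44306864 against chr19:44394455-44407879 for Scd1, and was at 2576 and 2561 CPM in Ctrl, 2578 and 2558 with IFN200, 2401 and 2579 with IFN2000, against 1131 and 1093 with Oxali alone, 996 and 1008 for Combo200 and 1026 and 1011 for Combo2000. Both desaturases separated completely by Oxali, and Scd2 had a log2 fold change of -1.21 ± 0.03 (SE, edgeR adjusted p = 1.54e-16). Per kilobase Scd2 was the most abundant member, at 470.0 CPM per kb in Ctrl and 204 CPM per kb in Oxali, against 33.1 and 15.3 CPM per kb for Scd1. The 2 genes share 4.66% and 4.01% of their 50-base stretches with the Scd family.

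The enzymes that make palmitate fell less. Fasn, fatty acid synthase, was at 754 and 753 CPM in Ctrl, 759 and 747 with IFN200, 615 and 704 with IFN2000, against 510.5 and 525 with Oxali alone, 510.2 and 522 for Combo200 and 549 and 499 for Combo2000. IFN2000 replicate 2 was lowest among the libraries without Oxali, still above all libraries with it, and the log2 fold change in Oxali was -0.54 ± 0.05 (SE, edgeR adjusted p = 1.20e-08). Acly, which makes cytosolic acetyl-CoA, was at 462 to 480.5 CPM without and 369.6 to 383 CPM with Oxali, a log2 fold change of -0.35 ± 0.03 (SE, edgeR adjusted p = 1.43e-08). Acaca, acetyl-CoA carboxylase, was at 106 to 125 CPM without and 72.7 to 83.9 CPM with Oxali, a log2 fold change of -0.58 ± 0.06 (SE, edgeR adjusted p = 1.56e-08), and shares 52.6% of its 50-base stretches with the gene model Gm5182. Of 5 adipocyte markers, a cell type rich in Fasn and Scd1, Lep was at 0 in every library and Adipoq, Plin1 and Cidec reached at most 0.174 CPM. Fabp4 made up the rest, and the 5 markers summed to 45.7 to 51.2 CPM without and 164 to 180.2 CPM with Oxali. This sum follows 1 gene, and a part of adipocytes in the changes of the members was not tested.

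The effect of Oxali was next read at each level of IFNγ, in 3 comparisons that share no library: Oxali against Ctrl, Combo200 against IFN200 and Combo2000 against IFN2000. In Combo200 against IFN200, 25 of 30 members were lower, where 33.5% of all genes were. Among them were Acat2 and Cyp51, not called in Oxali against Ctrl, with log2 fold changes of -0.19 and -0.11. In Combo2000 against IFN2000, 26 members were lower, where 33.8% of all genes were. Among them were Acat2 (-0.28), Cyp51 (-0.32) and Dhcr7 (-0.12). In Combo200 against IFN200 the call of Acat2 was lost with DESeq2 and that of Cyp51 with upper-quartile scaling or no filter. Both calls were also lost without Combo200 replicate 2 (-0.16 and -0.10). In Combo2000 against IFN2000 the call of Dhcr7 was lost with DESeq2, upper-quartile scaling, no filter and the replicate block. It was also lost when any 1 of the libraries compared was left out, and without the 2 libraries holding T cell or heart muscle transcripts. Lower in all 3 comparisons were 23 members, against 26.9% of all genes. Pmvk and Insig2 were higher in all 3, where 34.8%, 36.5% and 38.5% of all genes were higher in each taken singly. Across the 30 members Pearson's r between pairs of these comparisons was 0.96 to 0.98, a description over genes measured in the same libraries. Insig1 had log2 fold changes of -1.91, -1.74 and -2.04, Elovl6 of -1.45, -1.46 and -1.41, and Srebf2 of -1.14, -1.11 and -1.18. Abca1 differed most between them, with 0.24, -0.03 and 0.51. In 24 members all 6 libraries with Oxali lay below the other 6, as in 28.9% of all genes, and in 2, Pmvk and Insig2, they lay above, as in 31.8% of all genes. Values overlapped for Cyp51, Hsd17b7, Dhcr7 and Abca1.

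**Figure D3:**
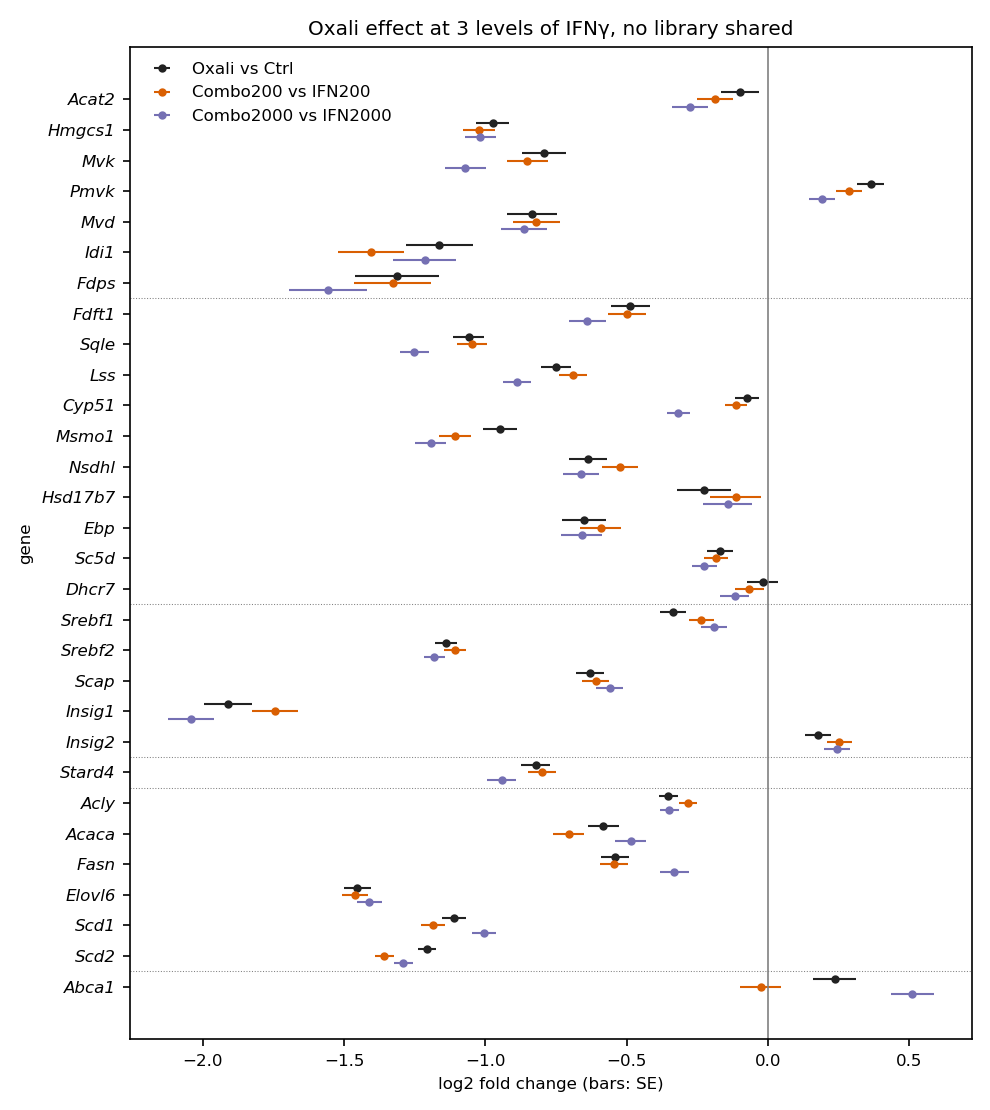
Log2 fold change with its SE (bars) for each of 30 members, grouped by role, in the 3 comparisons of Oxali that share no library. The 3 points of a gene lie close together for most members, with Insig1 furthest to the left at -1.74 to -2.04 and Abca1 spread from -0.03 to 0.51.

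Because no label of Combo or Ctrl is in conflict, Combo against Ctrl gives the effect of Oxali with IFNγ free of that doubt. In Combo200, 23 of 30 members were lower, where 33.1% of all genes were, and Pmvk and Insig2 were higher, where 35.6% were. In Combo2000, 24 members were lower, where 33.5% of all genes were, and Pmvk, Insig2 and Abca1 were higher, where 35.7% were. Abca1 had a log2 fold change of 0.21 there, and its call was lost without Ctrl replicate 2 (0.11) or Combo2000 replicate 2 (0.093). The 8 largest changes in Combo2000 were falls of Insig1 (-1.97), Elovl6 (-1.44), Fdps (-1.42), Scd2 (-1.33), Srebf2 (-1.21), Idi1 (-1.19), Sqle (-1.09) and Hmgcs1 (-1.04), as log2 fold changes. Hsd17b7 stood at 0.00 there (adjusted p = 0.985). Acat2 passed in Combo2000 with -0.15 (adjusted p = 0.0489), a call lost with DESeq2 and 7 other settings. These comparisons share the Ctrl libraries with Oxali against Ctrl.

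Adding IFNγ to Oxali changed few genes, among the members as among all genes. Against Oxali alone, 1 of 30 members was called in Combo200, where 1.83% of all genes were. In Combo2000 it was 1 as well, where 4.36% were. Both counts are near the shares of all genes, so they are no result about the members. The member called was Scd2 both times, with -0.15 ± 0.03 (SE, edgeR adjusted p = 0.013) in Combo200 and -0.13 ± 0.03 (SE, edgeR adjusted p = 0.0255) in Combo2000. Both Oxali libraries lay above all 4 Combo libraries. The call was lost when any 1 of the libraries compared was left out, with log2 fold changes of -0.10 to -0.17.

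IFNγ alone was then compared with Ctrl. At 200 pg no member was called by edgeR or DESeq2, where 0.114% of all genes were by edgeR, and 2 members (Abca1, Srebf1) had an unadjusted p under 0.05. The median log2 fold change was 0.0021. At 2000 pg, 4 of 30 members were higher and 3 lower (13.3% and 10%). Of all genes 16.9% were called, 8.39% higher and 8.47% lower. The counts are near these shares, so they are no result about the members. The 4 that rose were Cyp51, Msmo1, Sqle and Lss, of which DESeq2 and the replicate block each called 2, Cyp51 and Msmo1. Cyp51, with 100.3 and 100.4 CPM in IFN2000 against 80.2 and 84.8 CPM in Ctrl, rose by 0.28 ± 0.04 (SE, edgeR adjusted p = 1.09e-04) on the log2 scale, and Msmo1 by 0.25 ± 0.05 (SE, edgeR adjusted p = 0.00384). Sqle and Lss had log2 fold changes of 0.17 and 0.15. Both libraries of IFN2000 were above both of Ctrl in Cyp51, Msmo1, Sqle and Lss. Those that fell were Abca1 with -0.30 ± 0.08 (SE, edgeR adjusted p = 0.0122), Fasn with -0.19 ± 0.05 (SE, edgeR adjusted p = 0.0129) and Srebf1 with -0.19 ± 0.05 (SE, edgeR adjusted p = 0.00721).

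Several of these calls did not hold in other settings. With the correction for transcript length and GC content, the log2 fold changes were 0.27 for Cyp51, 0.27 for Lss, 0.20 for Msmo1, 0.19 for Sqle and -0.15 for Srebf1, all still called. Lss was lost in 8 settings, among them DESeq2 (adjusted p = 0.163), no filter, a fit of only the groups compared and the replicate block. Sqle was lost in 5, among them DESeq2 (adjusted p = 0.0548) and the replicate block. Msmo1 was lost without Ctrl replicate 1 (0.23) or IFN2000 replicate 2 (0.17), and Srebf1 without Ctrl replicate 2 (-0.14). With the correction Fasn (-0.01) and Abca1 (-0.14), whose exons span 10.9 and 10.4 kb, were no longer called. Both calls were also lost with the replicate block (-0.21 for Fasn, -0.24 for Abca1). The same held without Ctrl replicate 1 (-0.19 and -0.21) or IFN2000 replicate 2 (-0.093 and -0.17), and for Fasn without Ctrl replicate 2 (-0.18). The part of the length trend and of the T cell transcripts in these calls was not tested further. Without IFN2000 replicate 2, which held the T cell transcripts, 2 members were called in place of 7, and without IFN2000 replicate 3, 9 were. Without Ctrl replicate 1 or Ctrl replicate 2 the count was 2 or 4. Between the 2 amounts of IFNγ (IFN2000 against IFN200), 4 members were called, where 22.3% of all genes were: Cyp51 (0.22) and Sqle (0.20) were higher, Abca1 (-0.47) and Fasn (-0.19) lower. With the correction Fasn was at 0.0050 and no longer called. Without the 2 libraries holding T cell or heart muscle transcripts the calls of Abca1 (-0.27), Sqle (0.21) and Fasn (-0.079) were lost, and that of Sqle also without IFN200 replicate 2 (0.18), that of Fasn without IFN200 replicate 1 (-0.17) or IFN2000 replicate 2 (-0.092).

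**Figure D4:**
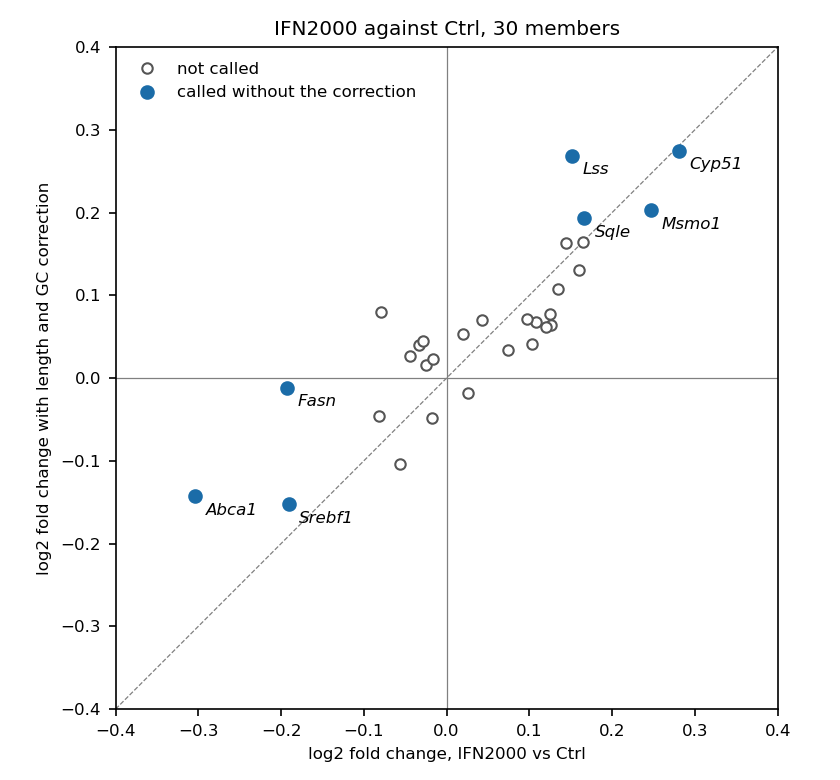
Log2 fold change of the 30 members in IFN2000 against Ctrl, without (x axis) and with (y axis) a correction for transcript length and GC content; filled points are members called without it, and the dashed line marks equal values. Cyp51, Msmo1, Sqle and Lss stay above 0.1 on both axes, while Fasn moves from -0.19 to near 0.

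To ask whether the response to IFNγ differed once Oxali was present, the interaction was tested, that is the log2 change from Oxali to Combo minus the log2 change from Ctrl to IFNγ. At 200 pg no member was called by edgeR or DESeq2, where 0.698% of all genes were by edgeR, and 2 members (Abca1, Scd2) had an unadjusted p under 0.05. At 2000 pg 1 of 30 members was called, where 2.72% were. This count is near the share of all genes, so it is no result about the members. The member called was Cyp51, with an interaction of -0.24 ± 0.06 (SE, edgeR adjusted p = 0.0248). It rose with IFNγ alone, and with Oxali present the log2 change was 0.04, which did not pass the test. This call was lost with DESeq2, in a fit of only the groups compared, with the replicate block, and without each of 5 single libraries (Ctrl replicate 1, Oxali replicate 1 or 2, or Combo2000 replicate 2 or 3), with values of -0.21 to -0.26 over these settings.

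Genes around the pathway that are not among the 31 were read from a list of 54, of which 48 passed the filter. With Oxali, 26 were lower and 10 higher against Ctrl, where 32.8% of all genes were lower and 34.8% higher, and the median log2 fold change was -0.21. Of 10 further genes of sterol synthesis and SREBP processing, 7 were lower, among them Mbtps1 (-0.90), the Golgi protease that cuts SREBPs. Of 19 further fatty acid genes tested, 11 were lower, among them Acsl3 (-1.08), Fads2 (-1.06) and Elovl1 (-1.02), and 4 higher, among them Me1 (0.53), which supplies NADPH, and Acss2 (0.45). Of 8 genes of sterol uptake and movement, 3 were higher and 3 lower, shares near those of all genes. Lrp8, a lipoprotein receptor, fell (-1.38), while Npc1 (0.97), which exports cholesterol from lysosomes, Soat1 (0.78), which esterifies it, and Lipa (0.46), which frees it from esters, rose. Of 6 LXR and oxysterol genes tested, Cyp27a1 (0.62), which makes an oxysterol, was higher and Lpcat3 (-0.73) lower, and 4 of 5 glycerolipid genes were lower. In IFN2000, 5 of the 48 were higher and 6 lower, beside 8.39% higher and 8.47% lower of all genes, so these counts are no result about the list. Among those lower were Mylip (-0.40) and Lpin1 (-0.38).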

How the data were processed

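Poly(A) RNA of Myc-CaP cells was sequenced from stranded libraries. The deposited table holds unnormalized read counts of the authors, 1 row per gene symbol and 1 column for each of 12 libraries. The study's methods describe alignment by STAR to GRCm38 and counting of GENCODE genes by featureCounts, while the submitters' processing notes name STAR 2.7.3a and RSEM 1.3.0. The strand setting of the counting is not given in the sources used here. After filterByExpr (minimum count 10, minimum total count 15) and TMM scaling, edgeR 4.0.16 (R 4.3.3) fitted a mean per group over all 12 libraries, and its quasi-likelihood p-values were adjusted over all 13177 genes. For 2 libraries against 2, the smallest two-sided p of an exact permutation test is 0.333, which is why calls were taken from a fit that pools the spread over genes and groups. SE was taken from the log2 fold change and its F statistic. The lists, tests and named genes were chosen with earlier results of these data known. Values are given per library for the regulators, Stard4 and the efflux pumps, for the 8 largest called changes in Oxali and in Combo2000 and the 4 largest in IFN2000 against Ctrl, and for members called between Combo and Oxali or in an interaction. Of the surrounding genes, at most 3 rises and 3 falls per list with a mean of at least 1 CPM are named, and some genes of these lists and of the marker lists are not reported here. Alternatives were DESeq2 1.42.0, other scalings, no filter, fits of only the groups compared, a replicate block, a correction for transcript length and GC content (splines with 5 degrees of freedom, 13043 genes), and leaving out single libraries. Leaving out IFN200 replicate 1 with IFN2000 replicate 2 was chosen after seeing the data. The code was tested on simulated counts.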

Additional observations from a re-analysis of the deposited data

Results flagged for a closer look

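Cyp51 was set apart because the effect of IFNγ at 2000 pg on it differed with Oxali present, by a test of the difference itself. That test called 1 of 30 members, where it called 2.72% of all genes, so the count is no result about the members. The interaction was -0.24 on the log2 scale (adjusted p = 0.0248, quasi-likelihood test of edgeR). It missed the threshold with DESeq2 (adjusted p = 0.0769), in a fit of only the groups compared (0.0611), with the replicate block (0.0533) and without each of 5 single libraries (Ctrl replicate 1, either Oxali or either Combo2000 library). Both libraries of IFN2000 lay above both of Ctrl, while those of Combo2000 and Oxali lay within 77.8 to 80.6 CPM.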

How the results depend on the processing

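The deposited counts gave 149 calls of a member in a comparison, of which 129 kept their direction and their call in every alternative. Over all 1941 alternative values of these calls, 1854 stayed the same, 86 lost the call and 1 changed sign: Fasn in IFN2000 against IFN200, at 0.0050 with the length and GC correction. The falls with Oxali deepened with that correction, for a cause that was not tested, to medians of -0.78 in Oxali against Ctrl, -0.74 in Combo200 against Ctrl, -0.75 in Combo2000 against Ctrl, -0.74 in Combo200 against IFN200 and -0.76 in Combo2000 against IFN2000. Upper-quartile scaling gave medians of -0.61 and -0.56 in Combo200 and Combo2000 against Ctrl and -0.62 in Combo200 against IFN200, and RLE scaling gave -0.65 and -0.66 in Combo200 against Ctrl and against IFN200.

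Replicate numbers are shared by groups, but no source says that they mark a common culture or day. Deviations of same-numbered libraries correlated at -0.38 to 0.13. With 2 libraries per group these correlations do not settle whether a culture or day was shared. With the replicate block the count of members called was 3 in IFN2000 against Ctrl, 0 in Combo200 and in Combo2000 against Oxali and 0 in the interaction at 2000 pg, and the medians were -0.63 in Combo200 against Ctrl and -0.64 in Combo200 against IFN200. The replicate block with the length and GC correction gave medians of -0.78, -0.75 and -0.76 in Oxali, Combo200 and Combo2000 against Ctrl, -0.74 in Combo200 against IFN200 and -0.76 in Combo2000 against IFN2000, with 1 member called in the interaction at 200 pg and 2 at 2000 pg.

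The interaction at 200 pg called 1 member without a filter, in a fit of only the groups compared, or with the length and GC correction. At 2000 pg it called 0 with DESeq2 and in a fit of only the groups compared, 3 without a filter and 2 with the correction. A fit of only the groups compared called 0 in Combo2000 against Oxali. Without the 2 libraries holding T cell or heart muscle transcripts, IFN2000 called 3 members against Ctrl (median 0.034) and 1 against IFN200 (median 0.028), and the median of Combo200 against IFN200 was -0.66. The cause of these shifts was not tested. Depth limited Abcg1, for which a count of 0 allows up to 0.111 to 0.167 CPM by library.

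Leaving out single libraries left these ranges. Members numbered 24 to 28 called with medians of -0.72 to -0.60 in Oxali against Ctrl, 0 called with medians of -0.00049 to 0.013 in IFN200 against Ctrl, 2 to 9 called with medians of 0.028 to 0.086 in IFN2000 against Ctrl. They numbered 25 called with medians of -0.66 to -0.62 in Combo200 against Ctrl, 25 to 27 called with medians of -0.67 to -0.60 in Combo2000 against Ctrl, 0 called with medians of -0.03 to 0.01 in Combo200 against Oxali, 0 called with medians of -0.04 to 0.02 in Combo2000 against Oxali. For the rest the ranges were 25 to 28 called with medians of -0.67 to -0.64 in Combo200 against IFN200, 28 called with medians of -0.75 to -0.65 in Combo2000 against IFN2000, 3 (without IFN2000 replicate 2) to 8 (without IFN2000 replicate 3) called with medians of 0.051 to 0.096 in IFN2000 against IFN200, 0 called with medians of -0.05 to 0.02 in the interaction at 200 pg, 0 to 5 (the latter without IFN2000 replicate 3) called with medians of -0.09 to -0.03 in the interaction at 2000 pg.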
